A study of Mus musculus with 2 samples.

Results

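Stag3, Rec8, Rad21l and Smc1b, the mouse genes for the cohesin subunits used in meiosis, were examined as loci in ATAC-seq libraries of germline cells that the labels call GSC. The 4 genes were given as a list and all 4 were found among 21887 protein-coding genes of the RefSeq table. ATAC-seq inserts adapters into accessible DNA, so that a peak marks a stretch that the transposase could reach. Both libraries came from cells of the genotype Stag3 KO that carried the reporters Acrosin-EGFP and beta-Actin-EGFP (AAG) and were sorted for viable, reporter-positive cells. They formed 1 group of 2 libraries, numbered replicate 1 and replicate 2. The wild-type cells named in the design text were not analysed here, so no value below compares the knockout with a control. The labels do not state the sex or age of the source, whether the cells were 1 clone, whether the libraries came from separate cultures, or which part of Stag3 was removed. Peaks at Stag3 therefore do not check the knockout.

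Cohesin is a ring that encloses DNA. It is closed by a kleisin protein that links a pair of SMC proteins, and a stromal antigen (STAG) protein binds to the kleisin. In germ cells the general subunits are joined or replaced by meiotic ones: STAG3 for STAG1 and STAG2, REC8 and RAD21L for the kleisin RAD21, and SMC1B for SMC1A. Meiotic cohesin holds sister chromatids together until the meiotic divisions and forms the base of the chromosome axis on which homologues pair.

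RefSeq promoter windows on GRCm38.p6, the patch release whose chromosomes have the coordinates of the peaks' build, were found for all 4 genes. Each holds 250 bases before the start and 50 bases from it. They are shown because a shared accessible site lay over the Stag3, Rec8 and Smc1b windows and not over the Rad21l window, and because their sequences differ. Capitals mark every match on either strand to GCGGGA (the core bound by E2F factors), CACGTG (the E-box bound by MYC, MAX and MGA), GGGCGG (the GC box), the NRF1 motif, TCTCGCGA, TTCCCGCG (a longer form of the E2F core) and CCAAT. The last 3 were searched after the sequences had been seen. TTCCCGCG contains the E2F core on its other strand. The windows are chr5:138280259-138280558 on the plus strand for Stag3, chr14:55617916-55618215 on the plus strand for Rec8, chr2:151668484-151668783 on the minus strand for Rad21l and chr15:85131908-85132207 on the minus strand for Smc1b.
Stag3: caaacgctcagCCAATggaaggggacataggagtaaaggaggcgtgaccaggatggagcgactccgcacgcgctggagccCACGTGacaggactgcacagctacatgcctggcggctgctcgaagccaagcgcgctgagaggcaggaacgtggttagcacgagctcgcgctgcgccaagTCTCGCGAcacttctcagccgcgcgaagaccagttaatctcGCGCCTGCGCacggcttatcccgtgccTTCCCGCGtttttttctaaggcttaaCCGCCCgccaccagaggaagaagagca
Rec8: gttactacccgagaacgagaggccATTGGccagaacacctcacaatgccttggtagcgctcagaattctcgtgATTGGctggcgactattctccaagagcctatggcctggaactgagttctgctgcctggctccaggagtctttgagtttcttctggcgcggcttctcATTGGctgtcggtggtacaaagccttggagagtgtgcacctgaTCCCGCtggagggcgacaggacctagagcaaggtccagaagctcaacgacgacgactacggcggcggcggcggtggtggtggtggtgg
Rad21l: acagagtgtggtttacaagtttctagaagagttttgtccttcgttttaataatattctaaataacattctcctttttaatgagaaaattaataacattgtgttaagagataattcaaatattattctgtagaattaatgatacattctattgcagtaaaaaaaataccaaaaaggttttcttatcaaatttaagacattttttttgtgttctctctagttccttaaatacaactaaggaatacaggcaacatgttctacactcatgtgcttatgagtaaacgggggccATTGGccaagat
Smc1b: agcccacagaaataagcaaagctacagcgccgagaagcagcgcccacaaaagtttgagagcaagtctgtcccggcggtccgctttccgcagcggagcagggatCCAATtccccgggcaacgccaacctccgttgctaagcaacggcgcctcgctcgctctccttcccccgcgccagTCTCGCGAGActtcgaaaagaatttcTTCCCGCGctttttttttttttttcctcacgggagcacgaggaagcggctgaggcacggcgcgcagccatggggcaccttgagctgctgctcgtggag

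A shared site is a stretch covered by overlapping peaks (at least 1 bp) of both libraries. The 4 loci, taken as the gene body with 50 kb on each side, held 25 shared sites out of 81478 in the genome. Values are the fold enrichment of the summit over its local background, as the authors' peak caller gave it, and the number of tags stacked at the summit, recovered from that fold and its p-value. Percentiles of fold are ranks among all peaks of the same library. With 1 group there was no test between conditions, and all comparisons below are descriptions of 2 libraries.

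Rec8, Stag3 and Smc1b had an accessible site over the RefSeq start and Rad21l had one upstream of it, and none of the 4 had a shared site further along the body. By fold the order of these sites was Rec8, Stag3, Rad21l, Smc1b, and the values of neighbours in this order did not overlap between libraries. By summit tags Smc1b stood far below the other three, and the values of Rec8 and Stag3 overlapped.

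Rec8 encodes the meiotic kleisin. It lies on chromosome 14 at 55618002 to 55625395, and its RefSeq start is at 55618166 on the plus strand. The site at its start, at 55617683 to 55618221, had 28.2-fold enrichment in replicate 1 and 26.8-fold in replicate 2 (27.5 ± 1.02, SD, n = 2), on 372 and 429 tags. Its summits lay 153 and 171 bp before the start. The fold stood at percentile 96.5 of replicate 1 and 94.4 of replicate 2. No other annotated gene contained this site or had an end within 1000 bp of it, so that among the 4 genes it was the one site at a RefSeq start without a neighbour's start beside it.

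Stag3 encodes the meiotic stromal antigen subunit. Its gene model spans 138272514 to 138312397 of chromosome 5, but its RefSeq start lies 7.995 kb inside that model, at 138280509 on the plus strand. The site over this start, at 138279871 to 138280704, had 19.9-fold and 18.8-fold enrichment (19.4 ± 0.808, SD, n = 2) on 417 and 422 tags, at percentiles 84.8 and 81.7. It was shared with Gpc2, the gene for the heparan sulfate proteoglycan glypican 2, which is transcribed the other way from 138279937, 572 bp from the Stag3 start. The summits lay 360 and 296 bp before the Stag3 start and 212 and 276 bp before the Gpc2 start, thus between the starts in both libraries. The far end of the Stag3 model carried a weaker site, at 138272379 to 138272958, of 6.27-fold and 6.72-fold on 19 and 20 tags. Its summits were 7973 and 7699 bp upstream of the Stag3 start, and it lay inside Gal3st4, a sulfotransferase gene, within 1000 bp of an end of Gal3st4 and of Gpc2. An end of the Stag3 gene model is therefore not where its main site lay.

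Smc1b encodes the meiotic SMC1 subunit. It spans 85064689 to 85131957 of chromosome 15 and starts at 85131957 on the minus strand. The site at its start, at 85131836 to 85132428, had 10.1-fold and 11.9-fold enrichment (11.0 ± 1.28, SD, n = 2) on 41 and 49 tags, at percentiles 57.0 and 63.8. It was shared with Ribc2, a gene of ciliary microtubules, whose nearest start lies 141 bp away on the opposite strand. The summits were 71 and 78 bp before the Smc1b start and 70 and 63 bp before that of Ribc2. A peak of 3.61-fold on 14 tags, 309 bp into Smc1b, was called in replicate 2 alone.

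Rad21l encodes the second meiotic kleisin. Its model spans 151644366 to 151670622 of chromosome 2. Its RefSeq start lies 2.089 kb inside that model, at 151668533 on the minus strand. No shared site lay within 1000 bp of that start. The site inside the gene model, at 151669905 to 151671252, covered the upstream end of the model and had 17.7-fold and 17.4-fold enrichment (17.5 ± 0.189, SD, n = 2) on 332 and 328 tags, at percentiles 80.2 and 78.9. Its summits were 2356 and 2298 bp upstream of the RefSeq start, and its nearer edge was 1372 bp from it. The site was 1348 bp wide and held 1 peak of replicate 1 and 2 peaks of replicate 2, of which the stronger is given. No other gene contained it or had an end within 1000 bp.

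**Figure D1:**
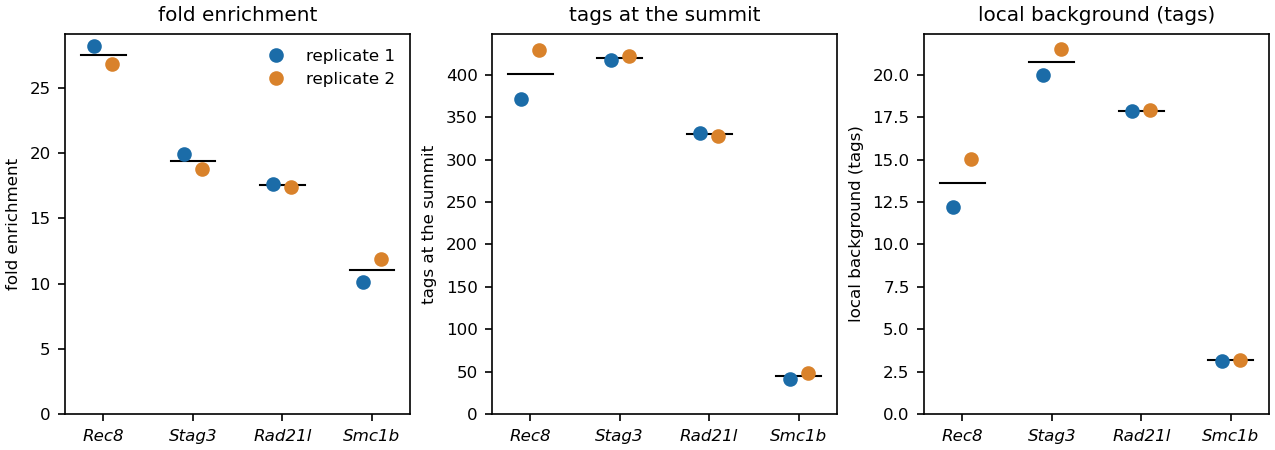
Fold enrichment, tags at the summit and local background in tags (vertical axes) of the strongest site in each gene body. Points are the libraries and bars their means (n = 2). Smc1b has 41 and 49 tags over a background of 3.16 and 3.20, while Stag3 has 417 and 422 over 19.96 and 21.5.

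The order depended on the scale. Fold sets the tags against the local background, and that background, solved here from fold and tags, differed between the sites. Whether it holds tags of the site itself was not tested. The background was 19.96 and 21.5 tags at Stag3, 17.9 and 17.9 at Rad21l, 12.2 and 15.1 at Rec8 and 3.16 and 3.20 at Smc1b. Stag3 and Rec8 could not be ordered by summit tags, since the 2 Stag3 values lay between those of Rec8. Smc1b was lowest on every scale. No test was made between these sites.

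Of the 4 genes, 3 had a shared site within 1000 bp of the RefSeq start, where the share over 17492 coding genes with such a start was 65.9%. The same 3 had the start position itself inside the site, against 59.1% of coding genes. These shares are close to what most coding genes show. Among 11523 coding genes with a start site, the median fold there was 15.4 in replicate 1 and 16.4 in replicate 2. Rec8 stood at percentiles 94.6 and 87.9 of these start sites by fold, Stag3 at 70.3 and 59.8, and Smc1b at 23.9 and 29.1. By tags Stag3 stood at 94.2 and 90.7, Rec8 at 90.9 and 91.2, and Smc1b at 8.63 and 11.2. The high place of Rec8 and Stag3 and the low place of Smc1b were thus seen in both libraries, with Stag3 nearer to the middle by fold. An oppositely directed coding start lay within 1000 bp of the start site at Stag3 and Smc1b and not at Rec8, against 14.1% of coding genes with a start site. Starts of 4395 coding genes were not available as neighbours, so the 14.1% is a lower limit.

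**Figure D2:**
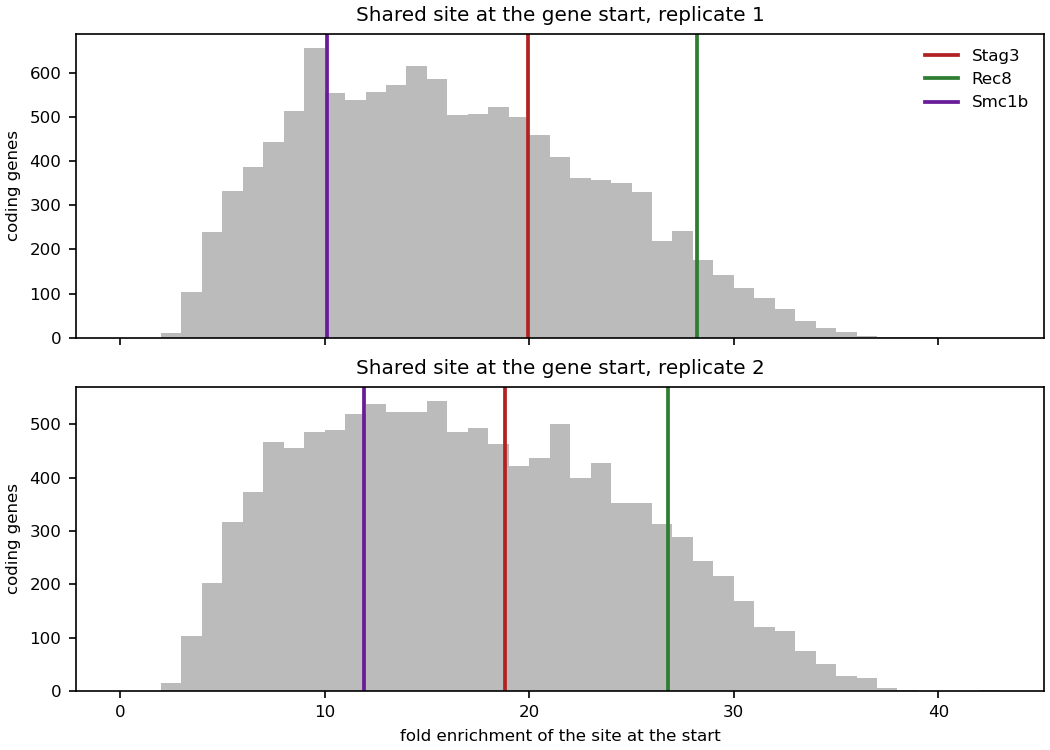
Histogram of the fold enrichment (horizontal axis) of shared sites at the starts of 11523 coding genes (vertical axis, number of genes), by library, with lines for Stag3, Rec8 and Smc1b. Rec8 lies in the upper tail, at 28.2 and 26.8, and Smc1b lies below the median, at 10.1 and 11.9.

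The promoter windows of Stag3 and Smc1b were rich in CpG, and that of Rad21l was not. Stag3 had 30 CpG in 300 bases and Smc1b had 29, at percentiles 88.3 and 87.1 of 32851 windows, whose median was 7. Rec8 had 18 and Rad21l had 2, at percentiles 70.3 and 14.1. The GC content was 61.3% in Stag3, 60.0% in Smc1b, 58.3% in Rec8 and 29.0% in Rad21l. The Rad21l window, which had no accessible site, was the one poorest in CpG. It belongs to a start 2.089 kb inside the gene model, whereas the accessible site covered the upstream end of the model. Whether transcription also starts at that end was not tested. The sequence under the Rad21l site, upstream of this window, was not examined.

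The E2F core GCGGGA was present in the Stag3, Rec8 and Smc1b windows, and not in that of Rad21l. E2F6, a member of the E2F family, acts in a Polycomb complex that represses germline genes in other cells. The core was held by 20.0% of all windows and by 39.0% of the 11838 windows of coding genes whose start lay inside a shared site. In each of the 3 genes it was read on the strand opposite to transcription, and it began 2 bp before the start in Stag3, 38 bp before it in Rec8 and 47 bp before it in Smc1b. The printed sequences show the longer form TTCCCGCG in Stag3 and Smc1b and a different flank in Rec8. TTCCCGCG was held by 1.01% of all windows and by 2.20% of windows with an accessible start.

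Stag3 and Smc1b also shared the letters TCTCGCGA, starting 71 bp before the start in Stag3 and 74 bp before it in Smc1b. In Smc1b the match went on to TCTCGCGAGA, which reads the same on both strands. TCTCGCGA was held by 0.995% of all windows and by 2.26% of windows with an accessible start. Windows with both TCTCGCGA and TTCCCGCG numbered 16, or 0.0487%, and Stag3, Smc1b and both Ribc2 starts were among them. The start lay inside a shared site in 42.2% of all windows, in 88.7% of the 327 windows with TCTCGCGA and in 87.3% of the 331 with TTCCCGCG. Both elements contain CpG, and windows of like CpG content without them were not compared. The pair was picked from these sequences, so its rarity is a description of the letters. The Smc1b summits, 71 and 78 bp before the start, fell at or beside TCTCGCGA, whereas the Stag3 summits lay upstream of the promoter window.

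Of the other motifs, the E-box CACGTG occurred in Stag3 only, 170 bp before the start, against 7.15% of all windows and 10.6% of windows with an accessible start. The NRF1 motif occurred in Stag3 only, 30 bp before the start (4.60% of all windows, 10.5% of those with an accessible start), as did the GC box, 23 bp after it (35.7% and 68.6%). CCAAT was found in all 4 windows, against 37.4% of all windows and 39.0% of those with an accessible start, and 3 times in Rec8, which 3.37% of windows reach. In Rad21l its match lay 38 bp after the start. The windows held no match to CNCCTCAG, the type bound by the meiotic activator STRA8 (7.94% of windows), nor to the cyclic AMP response element TGACGTCA (1.79%), the CTCF core motif (0.648%) or TATAAA (13.6%). A match or its absence concerns these letters in these windows only.

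**Figure D3:**
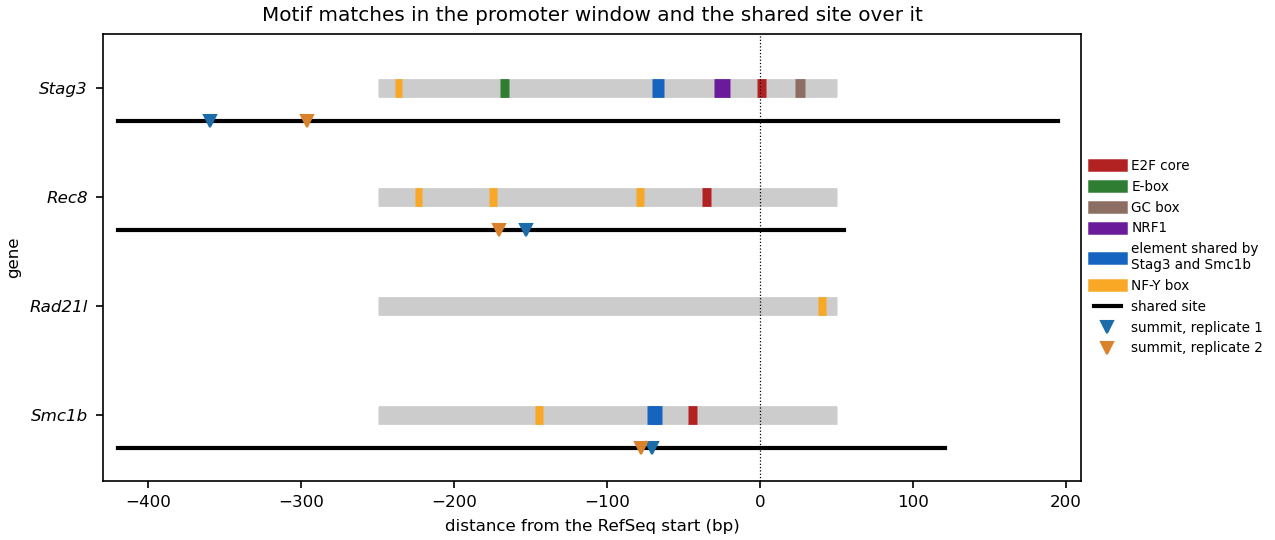
Motif matches (coloured blocks) in the promoter window of each gene (grey bar, one row per gene), by distance from the RefSeq start in bp, with the shared site (black line, drawn from -420 bp) and the summit of each library (triangles) where they fall in the range shown; the NF-Y box is CCAAT and the element shared by Stag3 and Smc1b is TCTCGCGA. The E2F core lies within 50 bp of the start of Stag3, Rec8 and Smc1b, and no site crosses the Rad21l window.

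The gene bodies beyond the start were without shared sites. Past 1000 bp from the RefSeq start, 0 shared sites lay in the bodies of all 4 genes. Among all coding genes with a RefSeq start 55.9% had none there. Among coding genes within 25% of the same start-to-end length, none was seen in 73.1% for Rec8 (7230 bp), 51.6% for Rad21l (24168 bp), 46.4% for Stag3 (31889 bp) and 26.0% for Smc1b (67269 bp). An empty body was therefore common at the length of Rec8 and less common at that of Smc1b.

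The empty stretch reached far past the end of Stag3. From its start site to the next shared site in the direction of transcription lay 160.5 kb, at 138280705 to 138441228, in which replicate 1 had 1 peak and replicate 2 had 0. This gap was longer than at 98.4% of 11522 coding start sites, whose median was 12.9 kb. Besides Stag3, the coding gene Pvrig, for an immune receptor, lay in it, together with pseudogenes and other noncoding models. Upstream of the Stag3 site the gap was 6.91 kb, at percentile 35.8 of start sites, whose median was 11.2 kb. Smc1b had a gap of 93.98 kb downstream, longer than at 95.5% of start sites, with 0 peaks of replicate 1 and 1 of replicate 2. Fam118a, which overlaps Smc1b, lies mostly in that gap. The downstream gap was 37.0 kb from the Rad21l site, with 0 peaks of either library, and 17.1 kb from the Rec8 site, with 1 peak of replicate 1. How well reads can be placed in these stretches was not tested.

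The loci differed in how crowded they were. Rec8 had 9 shared sites (8.38 per 100 kb) and 13 other coding genes, Rad21l had 7 sites (5.54 per 100 kb) and 4, Smc1b had 5 (2.99 per 100 kb) and 3, and Stag3 had 4 (2.86 per 100 kb) and 6. The median over coding genes was 7 sites and 5.18 per 100 kb. By density Rec8 stood at percentile 76.4 of coding genes, Rad21l at 53.4, Smc1b at 30.4 and Stag3 at 28.4. All 4 loci thus had an ordinary density of sites.

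**Figure D4:**
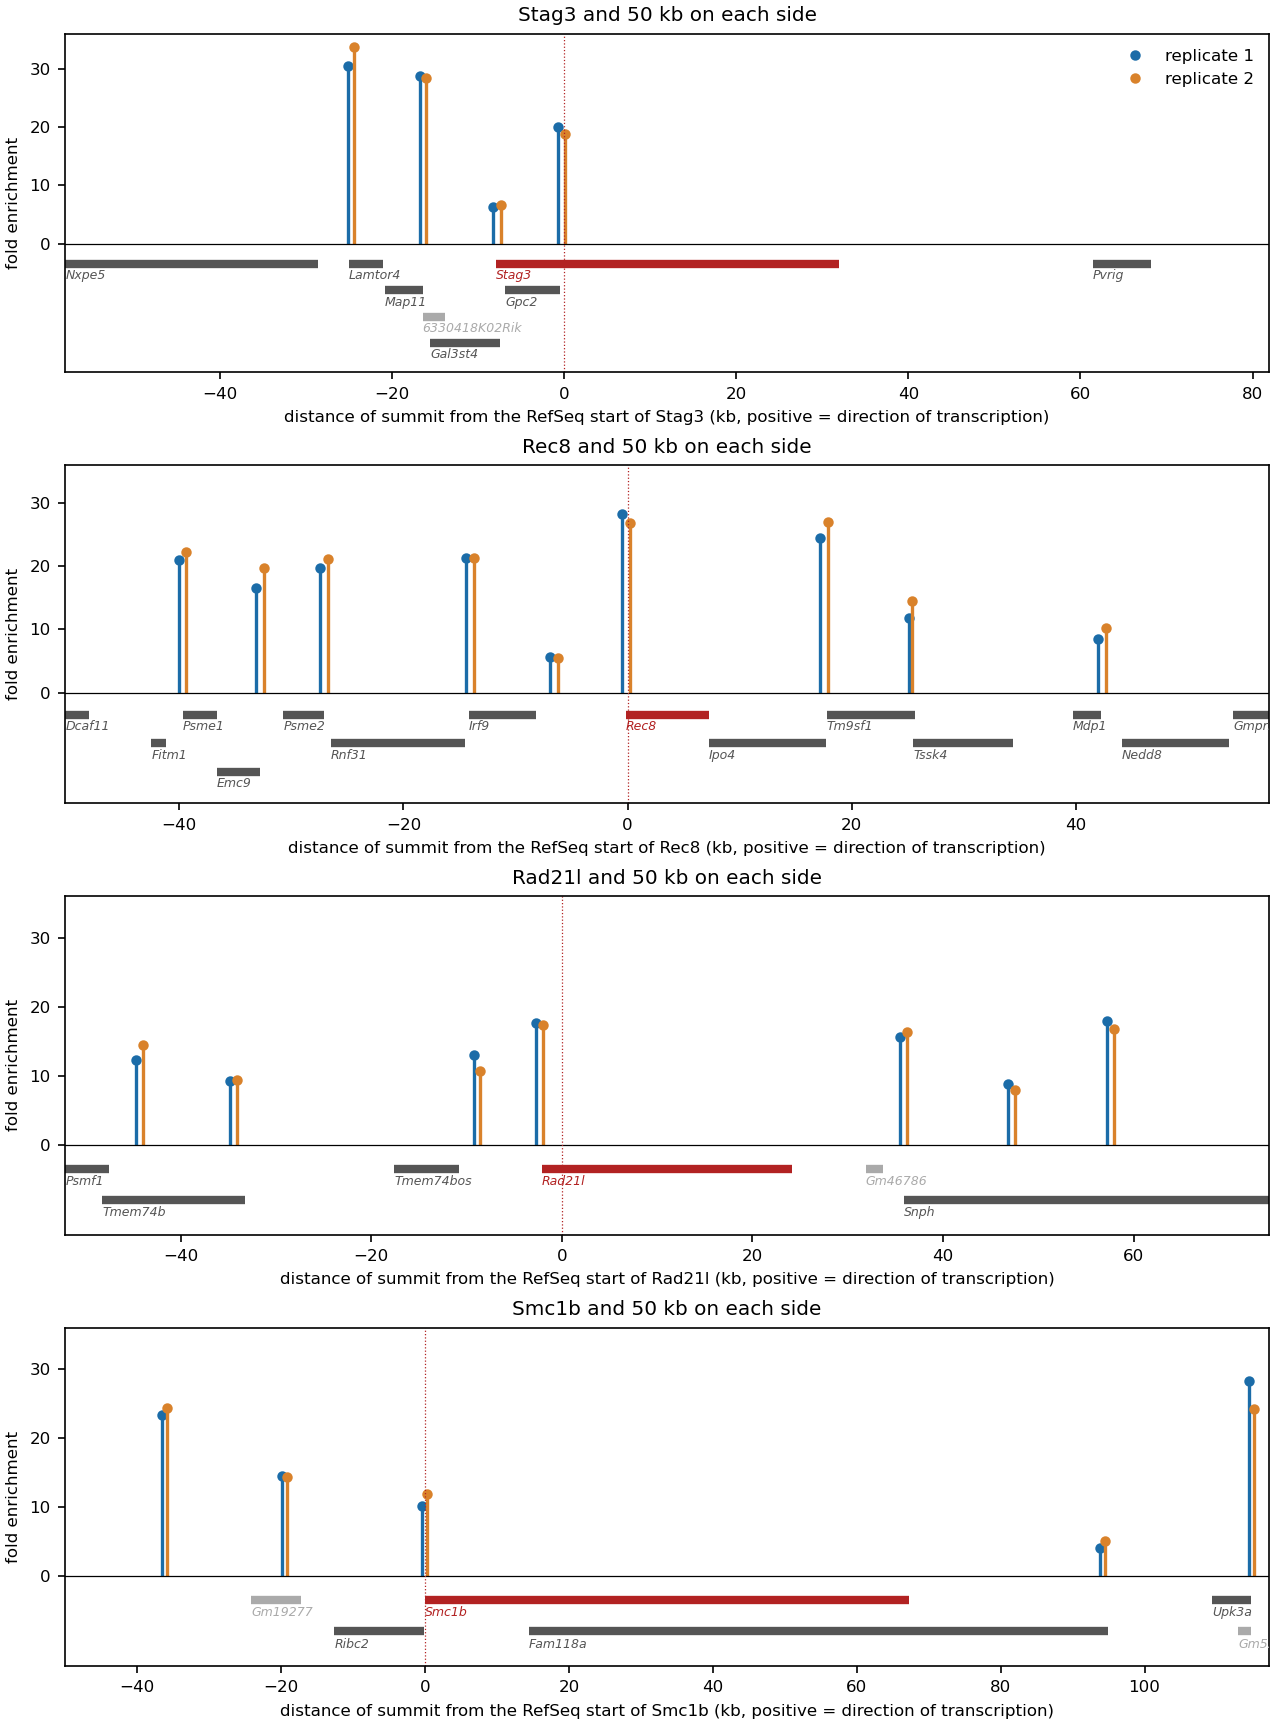
Fold enrichment (vertical axis) of every shared site at the 4 loci, by distance from the RefSeq start in kb, positive in the direction of transcription; the stems of the libraries are set slightly apart, and bars below are coding genes (dark), lncRNA genes (light) and the gene named in each title (red). No gene has a shared site in its body past 1000 bp from its RefSeq start, and Stag3 has all 4 sites at or before its start.

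Of the 25 sites, 5 touched the body of a meiotic cohesin gene and 20 lay in the flanks. A RefSeq start of some gene lay within 1000 bp of 16 sites (64.0%), and at 13 of these the start belonged to another gene only. Of the 78772 shared sites on chromosomes with RefSeq starts, 21.1% had one. Starts of 4395 coding genes were not available and could not be counted. The loci were chosen around genes, so the 64.0% is not set against other loci. The flanks thus mostly showed the starts of neighbours. The median fold of the 25 sites was 16.5 and 16.8, and that of all shared sites 11.1 and 10.6. Of the 25, 20 (80.0%) lay above the median fold of their library in both libraries, against 53.0% of all shared sites, and 14 of those 20 lay at a RefSeq start. Start sites of coding genes had medians of 15.4-fold and 16.4-fold, near those of the 25. The higher fold therefore does not set these loci apart from others chosen around genes.

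At the Stag3 locus, 2 flanking sites were stronger than the site at the Stag3 start. The first lay at the start of Lamtor4, for a subunit of the Ragulator complex on lysosomes, 24.8 kb upstream, with 30.5-fold and 33.7-fold on 375 and 483 tags. The second lay 16.5 kb upstream, at the start of the lncRNA gene 6330418K02Rik and over an end of Map11, within 1000 bp of an end of Gal3st4, with 28.7-fold and 28.5-fold on 166 and 188 tags. By tags the Stag3 site was above the second one in both libraries and overlapped the first.

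At the Rec8 locus the site of Rec8 was the strongest of 9 by mean fold. The next were at the start of Ipo4, an importin gene that ends 5 bp beyond Rec8, with 24.4-fold and 27.0-fold on 149 and 198 tags, and at Psme1, for a subunit of the proteasome activator PA28, with 21.0-fold and 22.3-fold on 227 and 264 tags. The Ipo4 and Rec8 values overlapped between libraries. Of the other 6 sites, 5 lay at starts of Emc9, Psme2 and Rnf31, Irf9, Tm9sf1, and Mdp1, and ranged from 8.47-fold to 21.3-fold. The remaining site lay in no gene, 6.56 kb upstream of Rec8, and had 5.64-fold and 5.49-fold on 17 tags in each library. It was the nearest shared site upstream of Rec8 and the weakest of the locus.

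At the Rad21l locus the site of Rad21l and a site inside Snph, the gene for the axonal mitochondrial anchor syntaphilin, could not be ordered: Snph had 17.9-fold and 16.8-fold on 67 and 60 tags. By tags the Rad21l site was the higher in both libraries. The third was at the Snph start, with 15.6-fold and 16.3-fold on 152 and 201 tags. Of the other 4 sites, 1 more lay in Snph, 2 in Tmem74b, and 1 between genes, 8.87 and 8.94 kb upstream of the Rad21l start, with 13.1-fold and 10.7-fold. They ranged from 8.00-fold to 14.4-fold.

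At the Smc1b locus the site shared by Smc1b and Ribc2 ranked 4 of 5 by mean fold. The strongest lay at the start of Upk3a, a uroplakin gene of the bladder lining, with 28.2-fold and 24.2-fold on 202 and 145 tags. It was followed by a site in no gene, 36.2 kb upstream of Smc1b, at 85167802 to 85168502, with 23.3-fold and 24.4-fold on 120 and 123 tags. This was the strongest of the 25 sites outside every gene of the table. Another lay in the lncRNA gene Gm19277, with 14.5-fold and 14.4-fold. The weakest lay in Fam118a near its start, with 4.08-fold and 5.12-fold on 12 and 15 tags, and in replicate 1 its −log10 q was 4.33.

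Most of these peaks recurred. Of the peaks at the 4 loci, 30 were in replicate 1, of which 4 had no partner, and 32 were in replicate 2, of which 5 had none. The shared share was 86.7% and 84.4%, against 78.0% and 84.9% of all peaks. The 9 unpaired peaks had between 2.99-fold and 7.73-fold enrichment on 13 to 52 tags, and all stood below the median fold of their library. In replicate 1 the strongest lay 8.19 kb past the Rec8 start, inside Ipo4 and just beyond the end of Rec8.

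The log2 ratio of summit tags, replicate 2 over replicate 1, had a median of 0.21 at the 25 sites, with a range from -0.48 to 0.53. Over all shared sites the median was 0.01 with an SD of 0.54. Of the 25 sites, 18 had more tags in replicate 2, 6 had more in replicate 1 and 1 had equal tags. All 25 lay within 1 SD of the median of all sites, as did 73.3% of all shared sites. That SD is a wide limit for sites with many tags. Near log2 tags of 4.75 the 5th to 95th percentile of all shared sites ran from -1.29 to 0.96, with a median of -0.12. Near 8.75 it ran from -0.06 to 0.44, with a median of 0.19. The sites over the starts of Rec8, Stag3 and Smc1b had ratios of 0.21, 0.02 and 0.26, and that of Rad21l had -0.02. The summits of 23 sites lay within 100 bp of each other between libraries, and the widest separation, 462 bp, was at Tm9sf1.

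**Figure D5:**
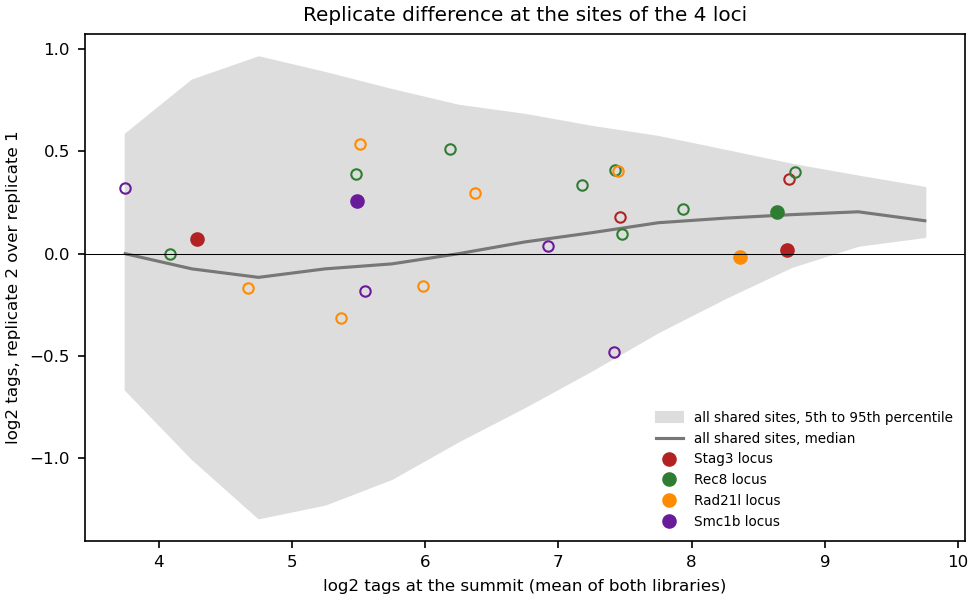
Log2 ratio of summit tags between libraries (vertical axis) against the log2 of their geometric mean (horizontal axis) for the 25 sites, filled where the site touches the gene body. The band spans the 5th to 95th percentile of all shared sites in bins of tags, and the sites of the 4 loci lie between -0.48 and 0.53.

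The general subunits that meiotic cohesin joins or replaces were a list of 5 genes: Stag1, Stag2, Rad21, Smc1a and Smc3. RefSeq starts were found for 3 of them, and all 3 had a shared site there, against 65.9% of coding genes with such a start. Stag1 had 18.02-fold and 18.5-fold, Smc1a 17.3-fold and 18.3-fold, and Smc3 15.5-fold and 17.1-fold. The Stag3 start, with 19.9-fold and 18.8-fold, lay above its paralogue Stag1 in both libraries, at a site it shares with Gpc2. The Smc1b start lay below Smc1a in both libraries. For Stag2 and Rad21 the start was not used and both gene ends were searched: Stag2 had a site of 8.75-fold and 7.93-fold, and Rad21 had none within 1000 bp of either end. Of the 4395 coding genes without a start in the table, 67.2% had a shared site within 1000 bp of either gene end. Of 4 axis and HORMA domain genes (Sycp2, Sycp3, Hormad1 and Hormad2), 4 had a site at the start, again against 65.9% of coding genes, with a median of 17.3-fold and 19.4-fold. Most coding genes had such a site, so these counts set neither list apart.

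Of 13 known regulators of meiotic genes, 13 had a shared site, at the start in 11 and at a gene end in 2, while the share over all 21887 coding genes, each searched in the same way, was 66.1%. They comprise members of the Polycomb complex PRC1.6 with E2F6, MGA, MAX and L3MBTL2, and the activators STRA8, MEIOSIN and A-MYB. Their median fold was 11.9 and 12.8. E2f6 itself had 9.60-fold and 10.3-fold, Mga 11.9-fold and 20.2-fold, and Stra8 15.1-fold and 18.3-fold. Accessibility at these genes does not measure their expression.

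The 18 genes of these lists with a site at a RefSeq start were also ranked by the distance of their log2 folds in both libraries from those of each meiotic gene. Nearest to Stag3 were Stag1 (distance 0.15) and Smc1a (0.21). Nearest to Rec8 were L3mbtl2 (0.07), with 29.1-fold and 27.7-fold, and Max (0.25). Nearest to Smc1b were Cbx3 (0.07), with 10.6-fold and 11.9-fold, and E2f6 (0.22). These distances rest on 2 libraries and on fold alone. Some gene of the 18 must be nearest to each meiotic gene. How many of the 11523 coding start sites lay as close was not counted, so no likeness particular to the named genes is shown.

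Markers were examined for the labelled cell type. All 16 genes listed for undifferentiated spermatogonia had a shared site, 11 at a RefSeq start and 5 at a gene end. Of all coding genes 66.1% had one. The 16 were Gfra1, Ret, Zbtb16, Id4, Etv5, Sall4, Lin28a, Nanos2, Nanos3, Foxo1, Ddx4, Dazl, Tdrd1, Itga6, Cdh1 and Epcam. Sites were found at 5 of 8 Sertoli and Leydig cell genes, 3 of 6 fibroblast genes, 2 of 6 endothelial and blood cell genes and 1 of 6 genes of later germ cells. The count for Sertoli and Leydig cell genes was near the 66.1% of all coding genes, and the other 3 were below it. Fold did not follow these counts. Over the genes with a site, the median was 11.2-fold and 11.7-fold for spermatogonia and 10.5-fold and 10.8-fold for Sertoli and Leydig cells. It was 14.1-fold and 14.0-fold for fibroblasts and 17.3-fold and 17.4-fold for endothelial and blood cells. The 1 gene of later germ cells with a site had 7.58-fold and 6.03-fold. Single genes varied widely. In replicate 1 the folds ran from 4.08 to 23.2 for spermatogonia and from 8.39 to 24.6 for Sertoli and Leydig cells. The counts and folds therefore do not identify the cells. A site does not show that a gene is expressed, and the part of other cells in the values above was not tested. Replicate 1 held 107331 peaks and replicate 2 held 98986, with medians of 40 and 41 summit tags and of 8.78-fold and 8.73-fold enrichment. The total number of reads is not given in the sources used here.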

How the data were processed

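ATAC-seq was deposited for 2 libraries of Stag3 KO GSCs as 1 peak list per library, so peaks had been called per sample. Per the submitters' processing notes, MACS2 2.1.1, Bowtie2 2.3.4.1 and Trim Galore were among the tools, as were deepTools 3.5.0, Picard 2.18.23 and bedtools 2.29.2, and mm10 and GRCm38.p3 were the builds. Settings, including duplicate removal and any Tn5 shift, are not given in the sources used here, and would affect which peaks were called and where summits lie. The authors' deposited fold enrichment is a ratio of summit to local background. The deposited −log10 p-value and −log10 q-value belong to each peak. The deposited score, which follows the −log10 q-value, was not used.

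Tags were recovered by solving for fold, as the quotient of tags and background with 1 added to each, and for the p-value as a Poisson tail. A single whole number solved both for 100% of peaks in each library, to within 0.0001 plus a relative error of 1e-05 in −log10 p. The method was tested on simulated peaks. Overlapping peaks (1 bp) of both libraries were joined into sites, with the strongest peak of each library giving its values. Genes and starts came from RefSeq tables on GRCm38.p6. The plan placed the start at the 5' end of the gene model, and the start given with the promoter windows was used instead. At the 5' end of its model Rad21l has its site of 17.7-fold and 17.4-fold. Stag3 has there only its weaker site, of 6.27-fold and 6.72-fold. The promoter table held 32851 windows of 27025 genes, and a gene with several starts counted if any had a site. Where a listed gene had no window, both gene ends were used with 1000 bp on each side. Coordinates count from 1. Distances between a site and a start, or a gene end, allowed 1000 bp.

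Calculations used Python 3.11.15, pandas 2.3.3, NumPy 2.4.6 and SciPy 1.17.1. With 1 group, no test was made. SDs cover 2 libraries, which may be technical replicates. Other distances, overlaps, thresholds and single libraries were tried. The genes, lists and motifs were chosen with earlier results of these data known. Described in full were the sites touching each gene body and the 2 strongest flanking sites, with genes that contain a site or have an end within 1000 bp. The related genes named were the 2 nearest to each meiotic gene, and further ones were chosen after their values were seen.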

Additional observations from a re-analysis of the deposited data

How the results depend on the processing

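The count of 25 shared sites depended on the distance searched. It was 15 within 25 kb of the gene bodies, 52 within 100 kb and 5 in the bodies alone, since these settings change how much sequence is searched. It was 25 when each peak had to cover 50% of the other, 24 with a −log10 q of at least 5 and 20 among peaks at or above the median fold of their library. Leaving out each library in turn gave 30 to 32 peaks in place of sites. Pairing sites on replicate 1 peaks, an alternative chosen after seeing the data, gave 26. The number of genes with a site at the start was 3 in every setting run except a window of 2500 bp, where it was 4 and the Rad21l site, with a mean of 17.5-fold, was counted. The median log2 ratio of tags was 0.21 in all 3 settings. No paired analysis was possible because the labels hold 1 group. The weakest sites, with 12 to 20 summit tags, are the least certain.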

Other observations

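The 16 promoter windows with both TCTCGCGA and TTCCCGCG, a pair of elements picked after the Stag3 and Smc1b sequences had been seen, belonged to 15 genes, 14 of them protein-coding. All 16 starts lay inside a shared site, with folds from 10.1 to 34.7 in replicate 1 and from 10.8 to 36.8 in replicate 2. The Smc1b start and both Ribc2 starts lay in the same site. Stag3 and Smc1b, from which the pair was picked, are counted among the 16. The start also lay inside a shared site in 88.7% of windows with TCTCGCGA and 87.3% of windows with TTCCCGCG, against 42.2% of all windows. The count of 16 is therefore close to what either element alone showed. Windows of like CpG content were not compared. The lowest value in replicate 1 was that of the site shared by Smc1b and Ribc2. Hells, for a chromatin remodeller needed for DNA methylation, had 15.6-fold and 18.1-fold on 137 and 189 tags. Ncapg, for a condensin subunit, had 20.5-fold and 24.8-fold on 377 and 454 tags. Cip2a, for an inhibitor of a protein phosphatase, had 25.9-fold and 27.3-fold on 356 and 421 tags. These genes were named after their values were seen. The starts of Smc1b and Ribc2, at 41 and 49 tags, had the fewest tags of the group, and the next was Srsf10, a splicing factor gene, with 91 and 121.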
